A study of Macaca mulatta with 45 samples.

Results

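CFB, C1QC and C3AR1 are 3 genes of the complement system, described here across 9 groups of rhesus macaque brain libraries. They were chosen by gene symbol, and each symbol matched 1 of the 30246 gene IDs in the count table (CFB, ENSMMUG00000000729; C1QC, ENSMMUG00000020756; C3AR1, ENSMMUG00000032156). Total RNA was sequenced in 15 animals from deep white matter (the centrum semiovale), the hippocampus and the dorsolateral prefrontal cortex, 1 library per animal and region, so that 45 libraries formed 9 groups of 5. Every animal had been irradiated. In the control animals the beam was aimed at the thorax (10 Gy), and their labels give a brain dose of 0.1 Gy. In the fWBI group (fractionated whole-brain irradiation) the brain was given 8 fractions of 5 Gy, 40 Gy in all, and tissue was taken 12 months later. In the TBI group (total body irradiation) 1 exposure of 6.75 to 8.05 Gy preceded necropsy by 6 to 9 years. Dose, volume, delivery and time since exposure differ together between fWBI and TBI and cannot be told apart. No source used here gives ages.

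Complement is a cascade of proteins that tags microbes, debris and, in the brain, synapses for removal by phagocytes. C1QC encodes the C chain of C1q, the recognition molecule that starts the classical pathway and is made in the brain mainly by microglia. CFB encodes factor B, the protease precursor that pairs with the cleaved form of C3 in the alternative pathway, the loop that amplifies C3 cleavage. C3AR1 encodes the receptor for C3a, the small fragment released when C3 is cut, and is carried by myeloid cells such as microglia.

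Library totals ranged from 6625435 to 12541507 counts, and the 3 genes were counted with 114 to 3507 reads (C1QC), 22 to 976 reads (CFB) and 16 to 380 reads (C3AR1) per library. Levels are given as CPM, the counts of a gene scaled to a common TMM-adjusted library total. Region labels were matched by their markers: the mean log2 CPM of 7 oligodendrocyte and myelin genes was 9.93 to 11.1 in white matter and 4.89 to 8.08 elsewhere, and that of 5 hippocampal identity genes was 4.72 to 5.66 in the hippocampus and 2.76 to 4.16 elsewhere. In control white matter, the libraries of animals 1 and 3 stood apart, with a mean log2 CPM of 13 pan-neuronal genes of 8.53 and 7.50 against 5.05 to 5.35 in the other 3. Differences of the 3 genes that involve control white matter are therefore also given without this pair. TBI animal 4 stood apart in the mean log2 CPM of 3 matched erythrocyte genes, with 1.81 to 2.54 in its libraries and at most -0.37 in all others. Of these, HBA averaged 7.46 CPM over the 45 libraries, ALAS2 0.43 CPM and HBA1 0 CPM.

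In white matter, all 3 genes rose after fWBI. The level of C1QC was 18.0, 47.4, 25.6, 26.5 and 38.1 CPM in control animals 1 to 5, and 329, 229, 206, 176 and 145 CPM in fWBI animals 1 to 5. Every fWBI library lay above every control library, and animal 1 of the fWBI group was the highest of all 45. The difference was a log2 fold change of 2.80 ± 0.29 (SE; 6.99-fold, adjusted p = 1.25e-05, quasi-likelihood test of edgeR, Benjamini-Hochberg adjustment over 15235 genes). CFB was at 8.55, 12.6, 10.1, 17.2 and 14.5 CPM in control white matter and at 84.1, 100.2, 61.5, 87.0 and 71.5 CPM after fWBI. These groups did not overlap either: the lowest fWBI library was that of animal 3 and the highest control library that of animal 4. The log2 fold change of CFB was 2.69 ± 0.18 (6.47-fold, adjusted p = 2.98e-07), which ranked 5th of the 15235 genes by p-value. C3AR1 was at 7.45, 10.2, 7.27, 14.0 and 16.1 CPM in control and at 32.3, 39.0, 35.0, 29.6 and 21.0 CPM after fWBI, again without overlap. Its log2 fold change was 1.52 ± 0.23 (2.86-fold, adjusted p = 0.000263).

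As background, 8.82% of all tested genes were called higher in this comparison and 6.27% had every fWBI library above every control library. The tissue was bulk, so more cells of a type and more RNA per cell cannot be told apart here or below. Among the control libraries, the pair with high pan-neuronal genes held the lowest levels of C1QC and CFB for animal 1 and of C3AR1 for animal 3. Without those 2 libraries the log2 fold changes were 2.55 for C1QC (adjusted p = 0.000149), 2.48 for CFB (1.11e-06) and 1.24 for C3AR1 (0.00165).

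In the hippocampus the 3 genes also rose after fWBI. C1QC was at 32.6, 47.8, 29.7, 26.2 and 19.7 CPM in control animals 1 to 5 and at 91.8, 73.8, 73.2, 51.2 and 66.1 CPM after fWBI. CFB was at 9.87, 8.38, 5.48, 5.30 and 6.13 CPM in control and at 14.1, 17.6, 14.2, 12.0 and 19.2 CPM after fWBI. C3AR1 was at 4.99, 3.40, 3.32, 2.99 and 2.52 CPM in control and at 8.74, 11.9, 9.86, 7.31 and 9.17 CPM after fWBI. For each gene the lowest fWBI library exceeded the highest control library, with the smallest ratio between them for C1QC (animal 4 after fWBI, animal 2 of the controls). The log2 fold changes were 1.19 ± 0.24 for C1QC (adjusted p = 0.0286), 1.13 ± 0.21 for CFB (0.0121) and 1.44 ± 0.20 for C3AR1 (0.00153, rank 18 of 15357 genes). Calls were rare in this comparison: 0.527% of genes were called higher and 1.43% did not overlap. The C1QC call was lost without any 1 of control animals 1, 3, 4 or 5 or fWBI animals 1, 2 or 3, with adjusted p up to 0.0870, while its log2 fold change stayed between 1.06 and 1.39.

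In the prefrontal cortex CFB and C3AR1 rose after fWBI, and C1QC did not pass the test. CFB was at 2.82, 6.50, 2.85, 3.30 and 5.19 CPM in control animals 1 to 5 and at 12.3, 15.4, 9.17, 11.5 and 10.7 CPM after fWBI. C3AR1 was at 2.20, 2.66, 1.52, 2.40 and 3.11 CPM in control and at 3.99, 5.91, 7.98, 5.85 and 5.02 CPM after fWBI. C1QC was at 14.0, 32.8, 20.5, 20.4 and 20.6 CPM in control and at 40.4, 40.7, 42.9, 45.3 and 33.8 CPM after fWBI. The groups did not overlap for any of the 3, although control animal 2 came close to fWBI animal 5 in C1QC. The log2 fold changes were 1.52 ± 0.28 for CFB and 1.29 ± 0.24 for C3AR1 (adjusted p = 0.0129 for both), and 0.92 ± 0.23 for C1QC (adjusted p = 0.0641, 95% interval 0.43 to 1.40). Here 0.805% of 15531 genes were called higher and 1.97% did not overlap. Without control animal 2, C1QC passed with 1.12 (adjusted p = 0.0199), and without control animal 3, CFB no longer passed (0.0513). With the DESeq2 test C1QC also passed in this region (adjusted p = 0.00799).

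**Figure D1:**
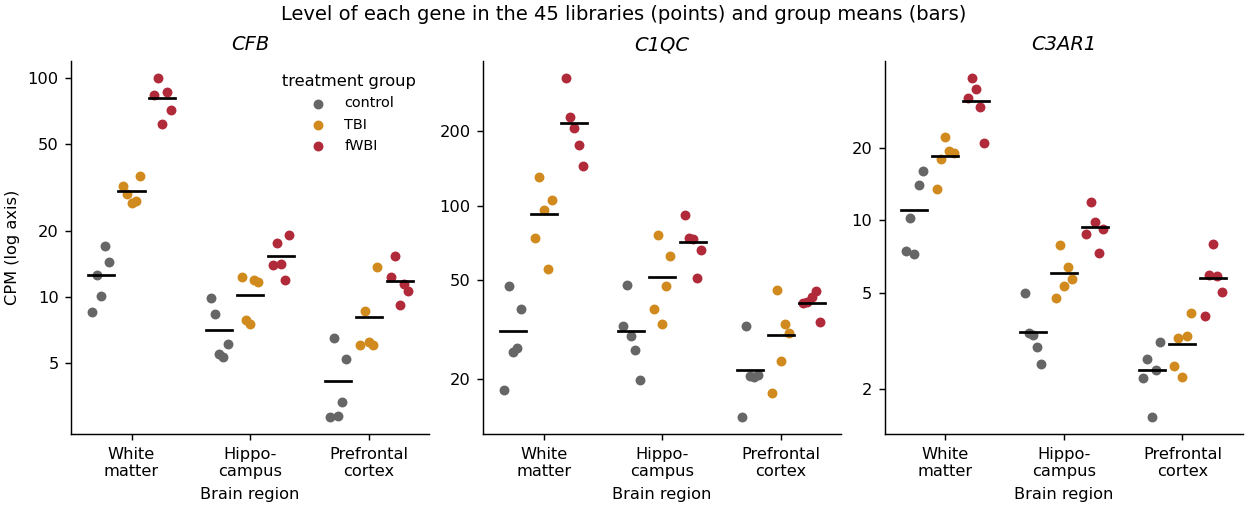
Level of each gene in CPM on a log axis, by brain region and treatment group. Each point is 1 of 45 libraries and each bar a group mean; white matter after fWBI holds the highest mean of every gene (80.9 CPM for CFB, 217 CPM for C1QC and 31.4 CPM for C3AR1).

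After TBI, CFB was the only 1 of the 3 genes that passed the test, and only in white matter. Its white matter levels were 32.2, 29.7, 26.9, 27.6 and 35.8 CPM in TBI animals 1 to 5, all above the control libraries given above, which reached 17.2 CPM. The log2 fold change was 1.28 ± 0.17 (2.42-fold, adjusted p = 0.0156), the 2nd smallest p-value among 15235 genes. Calls were very rare in this comparison: 10 genes, or 0.0656%, were called higher, and 1.57% of genes did not overlap. C1QC stood at 74.4, 131, 96.1, 55.4 and 105 CPM after TBI, also without overlap with control, and its log2 fold change of 1.57 ± 0.28 did not pass (adjusted p = 0.0546, 95% interval 0.97 to 2.17). C3AR1 stood at 13.5, 18.0, 22.2, 19.4 and 19.0 CPM, a range that overlapped the control libraries, with a log2 fold change of 0.75 ± 0.23 (adjusted p = 0.135, 95% interval 0.27 to 1.23).

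Leaving out single libraries ended the call of CFB after TBI but moved its size little. Its log2 fold change was 1.18 without control animal 1 (adjusted p = 0.0573), 1.20 without control animal 3 (0.0816) and 1.31 without TBI animal 3 (0.0649). C1QC passed without control animal 2 (1.77, adjusted p = 0.0290) or TBI animal 4 (1.71, 0.0467). Without both control libraries high in pan-neuronal genes, none of the 3 passed, with 1.05 for CFB (adjusted p = 0.166), 1.31 for C1QC (0.276) and 0.46 for C3AR1 (0.698). With the DESeq2 test, by contrast, all 3 genes passed in white matter after TBI, C1QC at an adjusted p of 3.38e-05 and C3AR1 at 0.0402.

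In the hippocampus and prefrontal cortex edgeR called no gene after TBI (0% of 15357 and of 15531 genes), against 1661 and 1826 genes at an unadjusted p under 0.05. Hippocampal levels after TBI were 38.1, 76.4, 33.4, 47.5 and 62.5 CPM for C1QC. They were 12.3, 7.81, 7.50, 11.9 and 11.7 CPM for CFB and 4.77, 7.92, 5.32, 6.41 and 5.69 CPM for C3AR1. Each of these ranges overlapped the hippocampal controls, although every TBI library lay above the control mean. The log2 fold changes there were 0.72 ± 0.24 for C1QC, 0.54 ± 0.21 for CFB and 0.80 ± 0.20 for C3AR1 (adjusted p from 0.290 to 0.394), and all 3 had an unadjusted p under 0.05. In the prefrontal cortex the TBI levels were 17.4, 45.8, 23.6, 33.3 and 30.6 CPM for C1QC, 6.03, 8.62, 6.23, 6.04 and 13.8 CPM for CFB, and 2.49, 3.25, 2.23, 3.31 and 4.12 CPM for C3AR1. Animal 5 was the highest of its group for CFB and for C3AR1, and animal 2 for C1QC. The log2 fold changes were 0.48 ± 0.23, 0.98 ± 0.28 and 0.39 ± 0.24 in that order (adjusted p = 0.426, 0.171 and 0.579), and only CFB had an unadjusted p under 0.05. The DESeq2 test called CFB in the prefrontal cortex (adjusted p = 0.0427) and none of the 3 genes in the hippocampus.

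**Figure D2:**
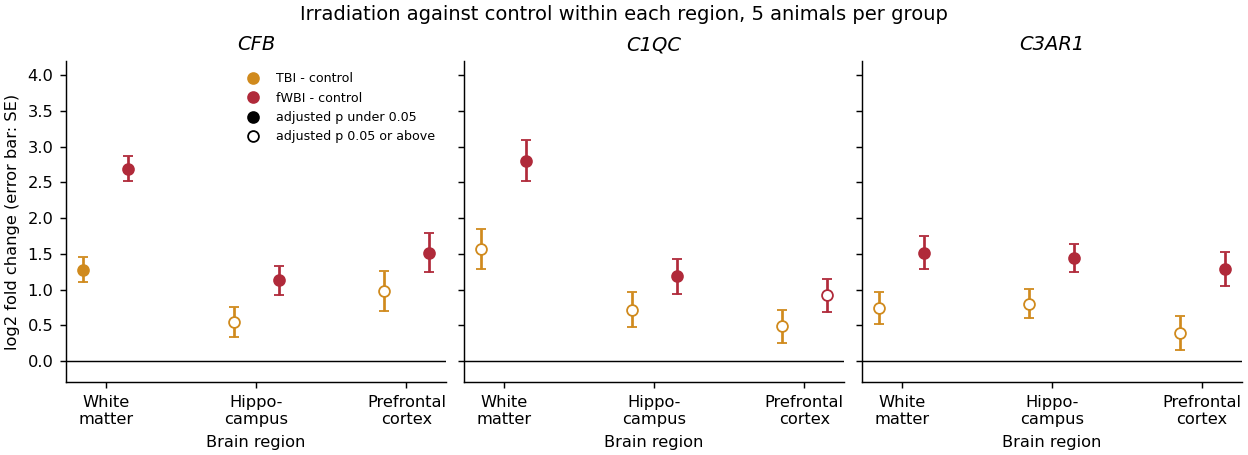
Log2 fold change against control for TBI and fWBI in each region, with SE bars (5 animals per group); filled points passed an adjusted p of 0.05. All 18 points lie above 0, and the filled ones are 8 of the 9 fWBI comparisons and CFB in white matter after TBI.

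Set directly against TBI, fWBI gave higher levels of all 3 genes in white matter. The log2 difference was 1.42 ± 0.17 for CFB (adjusted p = 9.39e-05), 1.23 ± 0.27 for C1QC (0.0106) and 0.77 ± 0.22 for C3AR1 (0.0452), where 4.82% of genes were called higher. For CFB and C1QC the fWBI libraries all lay above the TBI libraries, which 4.88% of genes did, while fWBI animal 5 lay within the TBI range for C3AR1. The C3AR1 call was lost when any 1 library other than that of fWBI animal 5 was left out (adjusted p from 0.0508 to 0.124). In the hippocampus the differences were 0.47 ± 0.24 for C1QC, 0.59 ± 0.20 for CFB and 0.64 ± 0.19 for C3AR1, and none passed (adjusted p from 0.308 to 0.712, with 0.247% of genes called higher). For the prefrontal cortex they were 0.43 ± 0.23, 0.54 ± 0.26 and 0.90 ± 0.23, and none passed (adjusted p from 0.195 to 1.00, with 0.212% called higher). Of the 3, C3AR1 in the prefrontal cortex passed with the DESeq2 test (adjusted p = 0.0440).

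The 3 genes differed in where they were high among the regions of the controls, whose labels give a brain dose of 0.1 Gy. In control animals, C3AR1 was higher in white matter than in the prefrontal cortex by 2.21 ± 0.27 log2 units (adjusted p = 6.49e-05) and than in the hippocampus by 1.62 ± 0.27 (0.000443), with the animal as a block. CFB was higher in white matter by 1.65 ± 0.27 (adjusted p = 0.000383) and 0.84 ± 0.26 (0.0168) against the same regions. C1QC was higher in white matter than in the prefrontal cortex by 0.53 ± 0.20 (adjusted p = 0.0345), and its difference from the hippocampus was -0.02 ± 0.20 (0.939, 95% interval -0.45 to 0.41). Genes called higher in control white matter made up 29.6% of 15406 genes against the prefrontal cortex and 28.2% against the hippocampus, so such calls were common. None of the 3 genes passed between the control hippocampus and prefrontal cortex, where 7.73% of genes were called higher: CFB differed by 0.81 ± 0.27, C1QC by 0.55 ± 0.20 and C3AR1 by 0.58 ± 0.29 (adjusted p from 0.0717 to 0.205). Leaving out 1 control animal ended the C1QC call against the prefrontal cortex for animals 2, 3, 4 and 5 (adjusted p up to 0.0959) and the CFB call against the hippocampus for animals 3, 4 and 5 (up to 0.0897). Without control animals 1 and 3 the white matter excess over the prefrontal cortex was 1.60 for CFB, 0.64 for C1QC and 2.30 for C3AR1, and all 3 passed. Over the hippocampus it was then 1.21 for CFB and 2.18 for C3AR1, which passed, and 0.33 for C1QC (adjusted p = 0.156).

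After fWBI and after TBI, each of the 3 genes was higher in white matter than in both other regions. In the fWBI animals the white matter excess over the prefrontal cortex was 2.76 ± 0.13 for CFB, 2.35 ± 0.15 for C1QC and 2.43 ± 0.16 for C3AR1 on the log2 scale, and over the hippocampus 2.38 ± 0.13, 1.57 ± 0.14 and 1.73 ± 0.15 (adjusted p at most 5.67e-07, with 35.7% and 35% of 15845 genes called higher). In the TBI animals it was 1.95 ± 0.17, 1.64 ± 0.16 and 2.58 ± 0.16 over the prefrontal cortex and 1.58 ± 0.17, 0.88 ± 0.16 and 1.63 ± 0.15 over the hippocampus, in the same order of genes (adjusted p at most 0.000159, with 37.2% and 37.9% of 15512 genes called higher). The hippocampus exceeded the prefrontal cortex in C1QC and C3AR1 after fWBI (0.78 ± 0.15 and 0.71 ± 0.16, adjusted p = 0.00190 and 0.00721, 12.3% of genes called higher) and after TBI (0.77 ± 0.16 and 0.95 ± 0.17, 0.00201 and 0.000609, 18.4% called higher). CFB did not pass between these 2 regions (0.38 ± 0.13, adjusted p = 0.0537 after fWBI; 0.36 ± 0.18, 0.127 after TBI).

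Whether the fWBI effect itself differed between regions was tested as an interaction over all 45 libraries. For CFB the log2 effect in white matter exceeded that in the prefrontal cortex by 1.17 ± 0.29 (adjusted p = 0.00917) and that in the hippocampus by 1.56 ± 0.28 (0.000519). For C1QC the excess was 1.85 ± 0.26 over the prefrontal cortex (adjusted p = 2.42e-05) and 1.61 ± 0.26 over the hippocampus (0.000142). For C3AR1 the difference was 0.26 ± 0.29 (adjusted p = 0.647, 95% interval -0.34 to 0.86) and 0.12 ± 0.28 (0.877, -0.46 to 0.70). Without control animals 1 and 3 the differences of CFB and C1QC still passed, at 1.22 to 1.75, and those of C3AR1 were 0.17 and -0.42 (adjusted p = 0.834 and 0.511). The effect of fWBI thus exceeded its grey matter size in white matter for CFB and C1QC, and no such difference was detectable for C3AR1. As background, 4.57% and 4.15% of 16614 genes were called with a higher effect in white matter against the prefrontal cortex and the hippocampus. Between the hippocampus and prefrontal cortex no gene was called in either direction by edgeR, against 302 genes at an unadjusted p under 0.05. There the differences of the 3 genes were -0.40 ± 0.30 (CFB), 0.24 ± 0.26 (C1QC) and 0.14 ± 0.31 (C3AR1).

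For the TBI effect, no interaction of the 3 genes passed. The effect on C1QC was larger in white matter than in the prefrontal cortex by 1.13 ± 0.26 (adjusted p = 0.125, rank 25 of 16614 by p-value) and than in the hippocampus by 0.90 ± 0.26 (0.189), where 0.0181% and 0.00602% of genes were called higher. Both C1QC differences passed without control animal 5 (adjusted p = 0.0388 and 0.0451). CFB differed by 0.33 ± 0.30 and 0.75 ± 0.28 in the same pair of contrasts (adjusted p = 0.709 and 0.235), and C3AR1 by 0.39 ± 0.30 and 0.01 ± 0.32 (0.639 and 0.994). Without control animals 1 and 3 none passed either, and the differences over the prefrontal cortex and hippocampus were 1.03 and 0.56 for C1QC, 0.39 and 0.40 for CFB, and 0.30 and -0.53 for C3AR1.

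Ordered by mean CPM, the 9 groups fell in a different sequence for each gene. For CFB the order was fWBI white matter (80.9 ± 14.9, SD, n = 5), TBI white matter (30.4 ± 3.65), fWBI hippocampus (15.4 ± 2.91), control white matter (12.6 ± 3.44), fWBI prefrontal cortex (11.8 ± 2.31), TBI hippocampus (10.2 ± 2.37), TBI prefrontal cortex (8.14 ± 3.32), control hippocampus (7.03 ± 2.01) and control prefrontal cortex (4.13 ± 1.64). Only the first pair of steps separated neighbours without overlap. For C1QC it was fWBI white matter (217 ± 70.0), TBI white matter (92.5 ± 29.1), fWBI hippocampus (71.2 ± 14.7), TBI hippocampus (51.6 ± 17.8), fWBI prefrontal cortex (40.6 ± 4.30), control hippocampus (31.2 ± 10.5), control white matter (31.1 ± 11.6), TBI prefrontal cortex (30.1 ± 10.7) and control prefrontal cortex (21.7 ± 6.85). Here only the first step was free of overlap. For C3AR1 it was fWBI white matter (31.4 ± 6.76), TBI white matter (18.4 ± 3.15), control white matter (11.0 ± 3.94), fWBI hippocampus (9.39 ± 1.67), TBI hippocampus (6.02 ± 1.22), fWBI prefrontal cortex (5.75 ± 1.47), control hippocampus (3.45 ± 0.932), TBI prefrontal cortex (3.08 ± 0.747) and control prefrontal cortex (2.38 ± 0.589), and all neighbours overlapped. C3AR1 was thus the gene whose 3 white matter groups headed the order, while control white matter stood 4th for CFB and 7th for C1QC. For C1QC that place is loose: its mean lay 0.0087 of the larger SD below control hippocampus and 0.084 above TBI prefrontal cortex. The order was not repeated without control animals 1 and 3.

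Markers of myeloid cells moved in some of the same comparisons. After fWBI in white matter, 7 of 9 pan-myeloid genes rose, as 8.82% of all genes did (median log2 fold change 1.70 against -0.03 for all genes). Their summed level was 426 to 876 CPM per library, against 213 to 420 CPM in control and 364 to 620 CPM after TBI. In control white matter, animals 1 and 3 had the lowest mean log2 CPM of these genes, 3.63 and 3.99 against 4.39 to 4.71 in the rest. The marker counts were not repeated without that pair. In the hippocampus 0 of 9 passed with edgeR (median 0.29), where 0.527% of all genes were called higher. At an unadjusted p under 0.05 there were 3, beside 1734 of 15357 genes in either direction. The sums were 110 to 236 CPM against 93.7 to 138 CPM in control. Prefrontal cortex had 1 of 8 called, LCP1 (0.805% of all genes; median 0.23), with sums of 90.0 to 115 CPM against 68.8 to 77.5 CPM. After TBI no pan-myeloid gene passed in any region with edgeR. In white matter 7 of 9 had an unadjusted p under 0.05, beside 2751 of 15235 genes in either direction. Of 4 matched homeostatic microglia genes, the microglial purine receptor gene P2RY12 fell after fWBI in all 3 regions. Its log2 fold changes were -1.36, -1.93 and -1.75 in white matter, hippocampus and prefrontal cortex. SELPLG fell in the hippocampus and prefrontal cortex (-1.36 and -2.34). Thus 1, 2 and 2 of the 4 were called lower in the 3 regions, beside 8.03%, 0.215% and 0.367% of all genes. The medians of the 4 were -0.12, -0.98 and -1.17. Of 5 tested perivascular macrophage genes, 3 rose after fWBI in white matter (median 2.40), 2 in the hippocampus (0.74) and 1 in the prefrontal cortex (0.87), beside the same shares of all genes, and SIGLEC1 was among them in each region. The 4 matched neutrophil and blood monocyte genes, MPO, ELANE, S100A9 and CSF3R, summed to 0.346 to 3.41 CPM in every library, none of them at 0 throughout a group.

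To set the 3 genes beside the myeloid markers, the mean log2 CPM of the 9 pan-myeloid genes was subtracted from that of each gene in each library. Relative to that mean, CFB was higher after fWBI by 1.35 in white matter, 0.74 in the hippocampus and 1.28 in the prefrontal cortex. In all 3 regions the fWBI and control libraries did not overlap (two-sided exact permutation test over libraries, p = 0.00794, the smallest that 5 against 5 can give; 0.0286 after adjustment over 18 tests). C1QC was higher relative to the markers by 1.48 in white matter (exact permutation p = 0.00794, adjusted 0.0286), 0.83 in the hippocampus and 0.70 in the prefrontal cortex (both 0.0159, adjusted 0.0317). For C3AR1 the relative level was 1.02 higher in the hippocampus (exact permutation p = 0.00794, adjusted 0.0286) and 0.95 higher in the prefrontal cortex (0.0159, adjusted 0.0317), but in white matter the difference was 0.20, with relative levels of -0.63 ± 0.22 after fWBI and -0.83 ± 0.36 in control (SD, n = 5; exact permutation p = 0.286, adjusted 0.302). In white matter, CFB and C1QC thus moved by more than the mean of the pan-myeloid genes, while for C3AR1 no difference from that mean passed the test (0.07 to 0.29 when 1 animal was left out). For C3AR1 in white matter the reference list set the call: against the mean of the 4 homeostatic microglia genes, of which P2RY12 fell, it was higher by 1.91 without overlap (adjusted exact permutation p = 0.0130). Without control animals 1 and 3 the fWBI differences in white matter relative to the pan-myeloid mean were 1.38 for CFB, 1.47 for C1QC and 0.16 for C3AR1, where the smaller groups left none past the threshold.

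After TBI the relative levels of C1QC and C3AR1 were higher in the hippocampus, by 0.66 and 0.73 (adjusted exact permutation p = 0.0317 and 0.0429). In white matter the relative differences after TBI were 0.60 for CFB, 0.89 for C1QC and 0.09 for C3AR1, and none passed (adjusted exact permutation p = 0.0549, 0.0549 and 0.690). TBI animal 2 had the highest and TBI animal 4 the lowest relative C1QC level of the group in all 3 regions. TBI animal 4, the animal with the high mean of erythrocyte genes, also had the highest pan-myeloid mean of its group in each region. Without it the relative differences in white matter passed for CFB (0.76) and C1QC (1.18), and so did CFB in the prefrontal cortex (1.18; adjusted exact permutation p = 0.0238 for all 3). Without control animals 1 and 3 the white matter differences were 0.64, 0.88 and 0.05 for CFB, C1QC and C3AR1, and none passed. In the prefrontal cortex the differences were 0.95 for CFB (adjusted 0.0549), 0.46 for C1QC (0.152) and 0.35 for C3AR1 (0.170), by the same exact permutation test. The share of each cell type in the tissue was not measured, so the part of cell number in these differences was not tested.

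**Figure D3:**
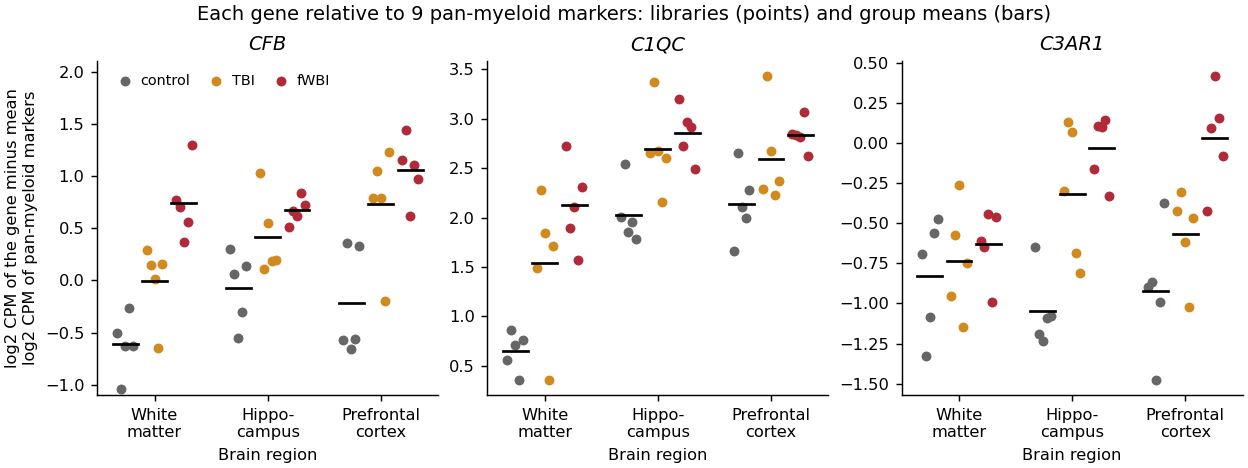
Log2 CPM of each gene minus the mean log2 CPM of 9 pan-myeloid markers, by region and treatment group; points are libraries and bars group means. For CFB the fWBI points lie above all control points in every region, whereas for C3AR1 in white matter the 3 groups overlap.

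The other complement genes were followed from a list of 54 symbols sorted by role, of which 42 matched an ID. C1QA and C1QB, the partner chains of C1QC, and C2, the gene beside CFB and its relative in the classical pathway, are not analysed here, nor are C4A, C4B, ITGAM and CD59. In white matter after fWBI, 17 of 31 tested members of the list were higher and 3 lower, CFB, C1QC and C3AR1 included, with a median log2 fold change of 1.00 against -0.03 over all genes (8.82% of which were called higher and 8.03% lower). Without the 3 genes, 14 of 28 were higher and the median was 0.73. Members that entered the test had to pass the filter on low counts, which 31 of the 42 did. The integrin gene ITGAX, taken up below, passed it through the fWBI libraries. When the regions of 1 treatment group were fitted alone, 27 members passed in control animals and 30 in fWBI animals. Other members may thus also have entered through the irradiated libraries, so these list counts and medians are a description only. Of the classical pathway, all 3 tested genes rose: besides C1QC, the proteases C1R, by 2.29 ± 0.32, and C1S, by 2.37 ± 0.37, which C1q activates. Around CFB, the factor D protease gene CFD rose by 1.21 ± 0.33. Properdin, CFP, was higher by 1.75 ± 0.53, but it was counted with at most 20 reads per library, so its value is a description only. C3, the substrate of the convertase that factor B forms, did not: it was at 289 ± 67.0 CPM in control and 325 ± 104 CPM after fWBI (SD, n = 5; log2 fold change 0.18 ± 0.22, adjusted p = 0.665).

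Among the receptor genes, C3AR1 and the C5a receptor gene C5AR1 (1.31 ± 0.24) rose in white matter after fWBI. The integrin gene ITGAX, a subunit of a complement receptor, had 0 to 3 reads per control library and 18 to 594 reads after fWBI. It passed the filter on low counts through the fWBI libraries, so the 6 receptor genes called higher of 7 tested are a description only. Of the terminal genes, C7 rose by 1.45 ± 0.37 and C5 differed by 0.22 ± 0.22 (adjusted p = 0.570). No lectin pathway gene passed with edgeR among 4 tested, and none had an unadjusted p under 0.05 (MASP1, 0.31 ± 0.22). Of 11 regulators, 4 were higher, among them the fluid-phase inhibitors CLU (0.94 ± 0.17) and CFI (1.36 ± 0.25), and 3 were lower. CSMD3, a regulator expressed by neurons, fell by 1.39 ± 0.17 on the log2 scale. Control white matter was the group with the libraries high in pan-neuronal genes, and their part in this fall was not tested. Without those 2 libraries, 13 members of the list were higher and 3 lower.

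Fewer members of the list passed in grey matter. In the hippocampus after fWBI, 3 of 28 tested members were higher, namely CFB, C1QC and C3AR1, and none was lower (median 0.31 against -0.01 over all genes, of which 0.527% were called higher and 0.215% lower). Without the 3 genes, 0 of 25 passed with edgeR and the median was 0.19. At an unadjusted p under 0.05, 8 of them were higher and 2 lower, beside 1734 of all 15357 genes in either direction. Over all list members, the 3 genes included, the DESeq2 test called 4 higher, and it called more of all genes than edgeR. The first tested members of the other roles gave -0.52 ± 0.15 for MASP1, 0.02 ± 0.20 for C5 and 0.67 ± 0.24 for SERPING1, the C1 inhibitor gene (adjusted p = 0.149, 0.986 and 0.273). In the prefrontal cortex 4 of 29 were higher, CFB, C3AR1, the scavenger receptor gene COLEC12 (0.86 ± 0.14, adjusted p = 0.00598) and C7 (1.93 ± 0.37, 0.0160), and none lower, where 0.805% of all genes were called higher and 0.367% lower. C7 had a larger log2 fold change there than any of the 3 genes. C3 differed by -0.69 ± 0.27 in the hippocampus (adjusted p = 0.336). In the prefrontal cortex it was at 19.1 ± 4.74 CPM after fWBI against 38.6 ± 4.71 CPM in control (SD, n = 5), and did not pass with edgeR (adjusted p = 0.0625). These groups did not overlap, but the share of all genes that fell without overlap was not counted. The effect of fWBI on C3 was higher in white matter than in the prefrontal cortex by 1.17 ± 0.25 (adjusted p = 0.00289) and than in the hippocampus by 0.86 ± 0.25 (0.0274).

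After TBI, CFB was the single member of the list called in white matter, of 31 tested (median 0.40), where 0.0656% of all genes were called higher. With the DESeq2 test 6 members were higher, and it called more of all genes than edgeR. At an unadjusted p under 0.05 with edgeR, 11 members were higher and 2 lower, beside 2751 of all 15235 genes in either direction. C3 differed there by 0.60 ± 0.22 (adjusted p = 0.175). No member was called by edgeR in the hippocampus or the prefrontal cortex, nor was any other gene. In the hippocampus, 5 of 28 tested members were higher at an unadjusted p under 0.05, beside 1661 of 15357 genes in either direction, and the DESeq2 test called 0. In the prefrontal cortex, 7 of 29 were higher and 1 lower, beside 1826 of 15531 genes. The DESeq2 test called 2 higher, and its share over all genes is not given here. Against TBI, fWBI white matter had 11 of 31 members higher and 1 lower, the 3 genes included (4.82% and 2.54% of all genes), also as a description only. The number higher was 6 without TBI animal 1 or fWBI animal 2 and 7 without TBI animal 3 or TBI animal 4. With them C1R (1.18 ± 0.30), C1S (1.34 ± 0.35), C5AR1 (0.91 ± 0.23), CFI (1.28 ± 0.25) and CD55 (0.83 ± 0.19) were higher, and CSMD3 fell by 0.86 ± 0.17 on the log2 scale.

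**Figure D4:**
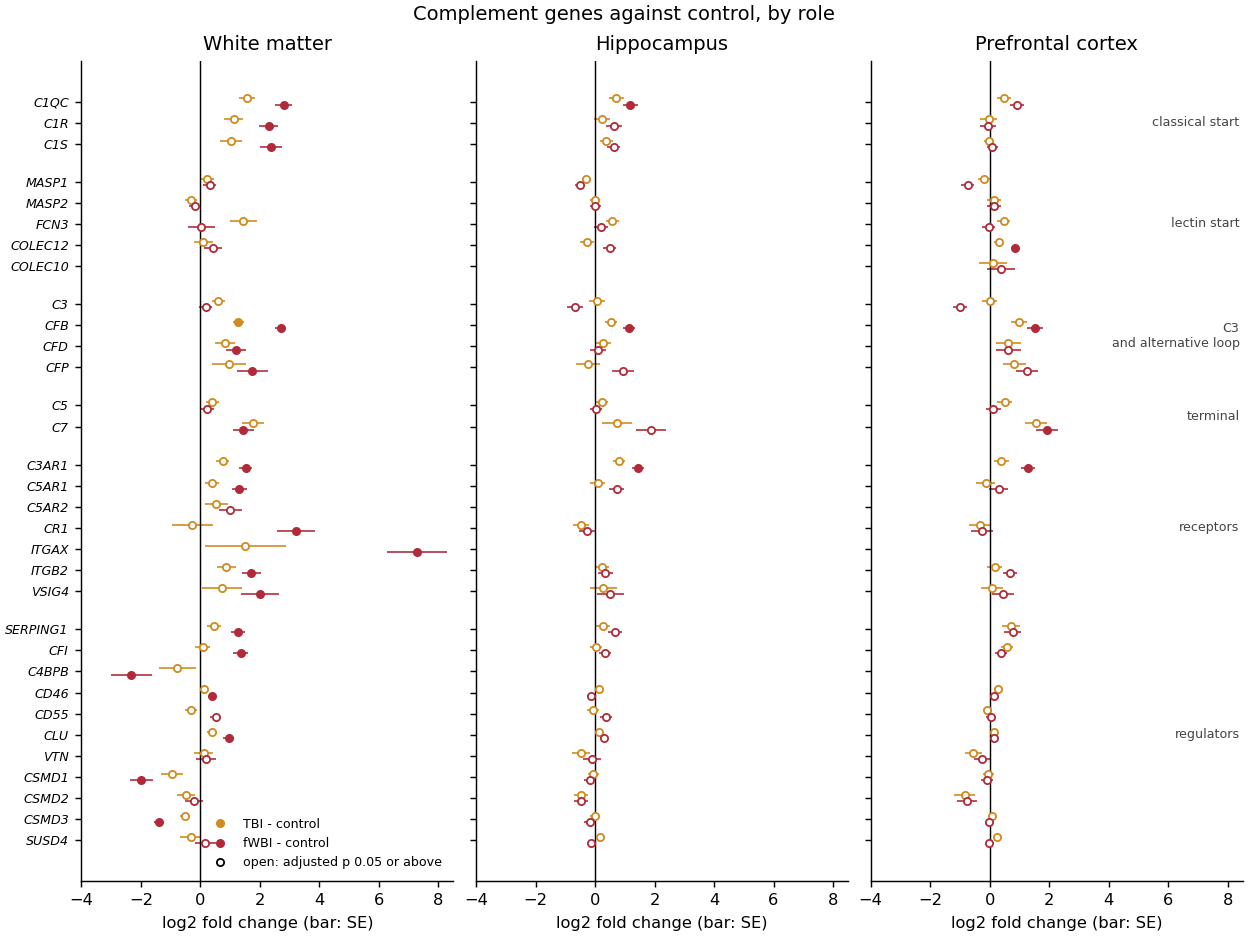
Log2 fold change against control of each tested complement gene, grouped by role, in the 3 regions; bars are SE and filled points passed an adjusted p of 0.05. In white matter 17 of 31 genes are filled and higher after fWBI and 3 filled and lower (8.82% and 8.03% of all genes). Some members may have passed the filter on low counts through irradiated libraries, so the counts are a description only. In the hippocampus only CFB, C1QC and C3AR1 are filled after fWBI, of 28 (0.527% of all genes called higher). In the prefrontal cortex CFB, C3AR1, COLEC12 and C7 are filled after fWBI, of 29 (0.805%). After TBI only CFB in white matter is filled.

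Across the 45 libraries the 3 genes followed each other closely. After the mean of each region was removed, Pearson's r of log2 CPM was 0.87 between CFB and C1QC, 0.85 between CFB and C3AR1 and 0.83 between C1QC and C3AR1. These libraries share animals and treatment groups, so r is given as a description without a test. Of 11449 genes compared, SERPINA3, an acute-phase protease inhibitor gene, was most like CFB (r = 0.94), followed by GPX1 (0.88), STING1 (0.87), C1QC and FAM111A (0.87). The genes most like C1QC were GBP3 (0.89), TLR2 (0.88), CFB, SERPINA3 (0.87) and GPNMB (0.86). Those most like C3AR1 were the MHC class II gene MAMU-DRB1 (0.89), CD14 (0.88), CFB, CYBB (0.84) and CD48 (0.84). Near-identical MHC copies could share reads, so the value for MAMU-DRB1 is uncertain. CFB was among the 5 nearest genes of both C1QC and C3AR1, and C3AR1 ranked 21st for CFB and 14th for C1QC.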

How the data were processed

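Total RNA libraries of 3 brain regions from 15 rhesus macaques were analysed from 1 table of raw read counts per gene that the authors deposited (30246 gene IDs, 45 libraries, whole numbers with unequal totals). Per the labels' protocols, brains were perfused with saline, and stranded libraries were made after removal of ribosomal RNA. FastQC, STAR, featureCounts and DESeq2 are named, without versions, in the submitters' processing notes. Build, annotation and strand setting were not given in the sources used here, so reads of overlapping or antisense genes cannot be told apart. Symbols were matched by ID for 15769 IDs, no coordinates are given, and levels are not compared between genes. Between 16.0 and 23.8% of a library's counts fell on IDs without a symbol.

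Treatment groups were compared within each region on 15 libraries with edgeR 4.0.16 (R 4.3.3): TMM scaling, the default low-count filter (filterByExpr) and the two-sided quasi-likelihood test. P-values were adjusted by Benjamini-Hochberg over all genes tested, with a threshold of 0.05. Regions were compared within a treatment group, and irradiation effects between regions over 45 libraries, with the animal as a block. The deviations of 1 animal's libraries from the group means were correlated (median r = 0.33 in 45 pairs, 38 of them above 0.1), and the labels give this pairing. Log2 CPM had a prior count of 2, intervals are 95%, and the myeloid comparison used exact permutation tests. No 2 libraries of a group were duplicates (chi-square per gene of at least 6.94). Simulated data were used to test the edgeR fits of fWBI against control and of control white matter against prefrontal cortex. They also tested the fWBI effect in white matter against prefrontal cortex, and no other step was simulated. The alternatives were DESeq2 (1.42.0) as size factors or test, limma-voom (limma 3.58.1), other filters, fits and libraries, and leaving out each animal.

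The 3 genes, the gene lists and the rules were chosen with earlier results of these data known. Besides the 3 genes, the text names up to 3 members per role of the complement list with the smallest adjusted p in a comparison, or the first tested member where none passed. C3 and the partner genes are always named, and so are the 5 genes with the highest r to each of the 3 after removal of region means, among genes with a symbol and a mean of at least 1 CPM.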

Additional observations from a re-analysis of the deposited data

Results flagged for a closer look

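The effect of fWBI differed between regions for CFB and C1QC by a test of the difference itself, edgeR's interaction term over 45 libraries. For CFB the log2 fold change against control was larger in white matter than in the prefrontal cortex by 1.17 (adjusted p = 0.00917) and than in the hippocampus by 1.56 (adjusted p = 0.000519). For C1QC it was larger in white matter by 1.85 (adjusted p = 2.42e-05) and 1.61 (adjusted p = 0.000142) against the same regions. All 4 kept an adjusted p under 0.05 without control animals 1 and 3, whose white matter libraries were high in pan-neuronal genes, with differences of 1.23 and 1.22 for CFB and 1.75 and 1.28 for C1QC. Within the 27 sets of 5 libraries of 1 gene and 1 group, no library stood apart from the others by Dixon's criterion at 95% (largest ratio 0.608 against a critical value of 0.71).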

How the results depend on the processing

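All differences here are on the log2 scale. The 8 calls of fWBI against control kept their direction and an adjusted p under 0.05 under every alternative other than leaving out an animal, and no alternative to a called difference changed its sign. The DESeq2 test carried 8 of 75 differences of the 3 genes past the threshold and none back. These were C1QC (1.57) and C3AR1 (0.75) after TBI in white matter, CFB after TBI in the prefrontal cortex (0.98) and C1QC after fWBI there (0.92). The others were C3AR1 in the prefrontal cortex for fWBI against TBI (0.90), CFB between hippocampus and prefrontal cortex in control (0.82) and fWBI animals (0.39, also 0.39 with DESeq2's size factors), and the excess of the TBI effect on C1QC in white matter over the prefrontal cortex (1.13). The DESeq2 test also called more genes in all, 228 higher after TBI in white matter against 10, and 180 against 81 after fWBI in the hippocampus and 271 against 125 in the prefrontal cortex. Limma-voom on 45 libraries passed C1QC (1.59) and C3AR1 (0.82) after TBI in white matter, with 258 genes higher. With no filter on low counts C1QC after TBI in white matter passed (1.58) and C3AR1 for fWBI against TBI there did not (0.78). With only the 2 groups compared, C1QC passed after fWBI in the prefrontal cortex (0.91). With the pan-neuronal mean as a covariate, CFB after TBI in white matter did not pass (1.08), nor without control animals 1 and 3 (1.05). Without that pair the relative levels of CFB (1.38) and C1QC (1.47) after fWBI in white matter lost their call, as 5 against 3 libraries allow fewer splits. Against the homeostatic list in place of the pan-myeloid list, 5 relative differences passed: CFB (0.94) and C1QC (1.23) after TBI and C3AR1 after fWBI (1.91) in white matter, and CFB (1.20) and C3AR1 (0.60) after TBI in the prefrontal cortex. The same animal numbers in different treatment groups belong to different animals and only share a number (median r = 0.0251 over 45 pairs, 14 above 0.1). With that number as a replicate block, CFB after TBI (1.30) and C3AR1 for fWBI against TBI (0.79) in white matter did not pass, and C1QC after fWBI in the prefrontal cortex did (0.98). With no replicate block for the animal, the control difference of C1QC between white matter and prefrontal cortex did not pass (0.54). Some differences changed sign, none of them called: the TBI effect on C3AR1 in white matter minus hippocampus was -0.035 with no filter, -0.055 with no replicate block and -0.53 without control animals 1 and 3. Without that pair the fWBI effect on C3AR1 in the same contrast was -0.42 and that on CFB in hippocampus minus prefrontal cortex 0.0097, against -0.40. C1QC in control white matter minus hippocampus was 0.33 without the pair and 0.012 with no replicate block. Members of the complement list called higher after TBI in white matter numbered 6 with the DESeq2 test, 5 with limma-voom and 0 with the block, against 1. The cause of these changes was not tested. Leaving out 1 animal in turn gave the following ranges where a call or a sign changed. In white matter they were 1.18 to 1.41 (CFB) and 1.42 to 1.77 (C1QC) after TBI, and 0.68 to 0.88 (C3AR1) for fWBI against TBI. After fWBI they were 1.06 to 1.39 for C1QC in the hippocampus, and 0.80 to 1.12 for C1QC and 1.40 to 1.75 for CFB in the prefrontal cortex, where 2 to 5 members of the complement list were higher, 2 without control animal 3. Between regions of control animals they were 0.38 to 0.61 (C1QC, white matter minus prefrontal cortex), -0.28 to 0.20 (C1QC, white matter minus hippocampus), 0.61 to 1.12 (CFB, the same pair) and 0.41 to 0.66 (C1QC, hippocampus minus prefrontal cortex). For CFB in the hippocampus minus prefrontal cortex they were 0.28 to 0.46 in fWBI and 0.20 to 0.56 in TBI animals. For the TBI effect in white matter they were 1.01 to 1.34 (C1QC) over the prefrontal cortex, and 0.71 to 1.14 (C1QC) and -0.25 to 0.26 (C3AR1) over the hippocampus. For the fWBI effect on C3AR1 they were -0.14 to 0.36 in white matter minus hippocampus and -0.055 to 0.32 in hippocampus minus prefrontal cortex. Relative to the pan-myeloid markers after fWBI they were 1.21 to 1.44 (CFB) and 1.33 to 1.62 (C1QC) in white matter. In the hippocampus they were 0.62 to 0.84 (CFB), 0.75 to 0.96 (C1QC) and 0.98 to 1.12 (C3AR1), and in the prefrontal cortex 1.17 to 1.42 (CFB), 0.58 to 0.83 (C1QC) and 0.82 to 1.09 (C3AR1). After TBI the relative ranges were 0.50 to 0.76 (CFB), 0.70 to 1.18 (C1QC) and -0.033 to 0.19 (C3AR1) in white matter. They were 0.49 to 0.79 (C1QC) and 0.62 to 0.85 (C3AR1) in the hippocampus and 0.83 to 1.18 (CFB) in the prefrontal cortex. With 4 against 5 libraries an exact permutation test has fewer splits, and many relative calls ended there.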
